A study of Mus musculus with 5 samples.

Results

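The immediate early genes *Egr1*, *Egr2* and *Egr3*, *Ier2*, *Ier3* and *Ier5*, *Zfp36*, *Zfp36l1* and *Zfp36l2*, and *Btg2* were followed in back skin of mice carrying a mutant *Clock* gene and of their WT littermates. The members were all probe sets, the sets of short oligonucleotides that read a message on an Affymetrix array, that the platform annotation assigns to 1 of these 10 genes alone. This gave 18 probe sets, of which 15 were bright enough to be tested (a mean log2 intensity at or above the 40th percentile), out of 45037 probe sets in all, covering 18193 named genes, and 27022 tested. Two-sided limma tests found 0 of the 15 past an adjusted p of 0.05. At an unadjusted p under 0.05, both probe sets each of *Egr3*, *Zfp36l1* and *Btg2* had lower intensities in *Clock* mutant skin, and the other 7 genes had none.

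The series held 5 arrays of dorsal skin, 1 per mouse: 2 *Clock* mutants and 3 WT littermates, labelled as biological replicates. *Clock* mutant replicate 1 was male, and *Clock* mutant replicate 2 and all 3 WT mice were female. All mice were at postnatal day 23, and all skin was staged as telogen, the resting phase of the hair cycle, by histology. The comparison asks how skin of the mutants differs near the age at which their hair cycle has been reported to fall behind. Markers of the growing follicle were nevertheless highest in *Clock* mutant replicate 1, as given below, so that the arrays may not be matched in stage. The mutant allele carries a single base change that alters splicing and leaves a CLOCK protein that dimerises with BMAL1 but activates E-box genes poorly. It is carried in every tissue of the mouse, so that skin is compared within a mutant animal. The labels give neither zygosity nor the hour of skin collection. Whole dorsal skin holds epidermis, follicles, dermis, fat and muscle, and in such bulk samples fewer cells of a type and less RNA per cell cannot be told apart.

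Immediate early genes are transcribed within minutes of growth factors, wounding or stress, from promoters already loaded with factors such as SRF and CREB, and their messages are short lived. EGR proteins are zinc finger factors that bind GC-rich sites and are held in check by the NAB corepressors. ZFP36 proteins bind AU-rich elements in messages and recruit the CCR4-NOT deadenylase, which shortens the poly(A) tail, and BTG2, an antiproliferative p53 target, binds the same deadenylase. *Ier2*, *Ier3* and *Ier5* are induced with the EGR genes.

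RefSeq promoter windows (GRCm38.p6) were at hand for 6 of the 10 genes: *Egr2*, *Ier3*, *Ier5*, *Zfp36*, *Zfp36l1* and *Btg2*. The 250 bases before the start are shown for *Zfp36l1* and *Btg2*, which had the smallest p-values among the members. They are also shown for *Zfp36* and *Egr2*, which hold the binding motif of SRF, the CArG box, and whose differences were smaller. No window was at hand for *Egr3*, and whether motifs go with the differences was not tested. Capitals mark every match to the 6 motifs searched on both strands.
Zfp36l1 (chr12:80113014-80113263, minus strand): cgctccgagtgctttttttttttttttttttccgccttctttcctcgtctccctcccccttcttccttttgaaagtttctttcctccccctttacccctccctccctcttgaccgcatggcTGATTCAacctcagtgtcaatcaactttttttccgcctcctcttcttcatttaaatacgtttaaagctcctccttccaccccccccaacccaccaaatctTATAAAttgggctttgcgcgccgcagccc
Btg2 (chr1:134079156-134079405, minus strand): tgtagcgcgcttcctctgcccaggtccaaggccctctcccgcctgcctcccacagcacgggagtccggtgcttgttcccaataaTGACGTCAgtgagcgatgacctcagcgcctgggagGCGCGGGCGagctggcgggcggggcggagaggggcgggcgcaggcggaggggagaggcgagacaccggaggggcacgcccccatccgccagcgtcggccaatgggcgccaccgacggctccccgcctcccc
Zfp36 (chr7:28379229-28379478, minus strand): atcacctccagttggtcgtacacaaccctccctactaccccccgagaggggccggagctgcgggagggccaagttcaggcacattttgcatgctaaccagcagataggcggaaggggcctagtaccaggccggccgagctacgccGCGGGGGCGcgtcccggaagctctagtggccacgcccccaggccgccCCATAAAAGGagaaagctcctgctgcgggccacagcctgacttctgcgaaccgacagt
Egr2 (chr10:67537619-67537868, plus strand): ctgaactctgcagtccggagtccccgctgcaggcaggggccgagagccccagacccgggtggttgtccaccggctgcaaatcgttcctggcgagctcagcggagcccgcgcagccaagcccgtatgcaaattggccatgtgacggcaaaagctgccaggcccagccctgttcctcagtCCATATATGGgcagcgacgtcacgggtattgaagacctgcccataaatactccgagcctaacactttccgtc

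The capitals in the *Zfp36l1* window are an AP-1 site (TGANTCA, present in 6.75% of 32851 such mouse windows) from 129 to 123 bases before the start and a TATA box (TATAAA, 12.4%) from 29 to 24 bases before it. In *Btg2* they are a CREB element, the CRE (TGACGTCA, 1.55%), from 166 to 159 bases before the start and an EGR site (GCGNGGGCG, 4.70%) from 131 to 123 bases. *Zfp36* had an EGR site from 105 to 97 bases and a CArG box (1.47%) from 58 to 49 bases before its start. *Egr2* has 5 annotated starts, 4 of whose windows held a CArG box. The windows of starts 3, 4 and 5 overlap and share 1 box, and start 2 has another. The window shown, that of start number 3, has it from 72 to 63 bases before the start. The first *Egr2* start had instead an E-box (CACGTG, 6.02%), the element that CLOCK and BMAL1 bind, from 27 to 22 bases before it. No other window of the 6 genes held this E-box, and *Ier3* and *Ier5* held none of the 6 motifs. Within each window no match overlapped another. A match is a description of the letters and not evidence that a factor was bound in this skin.

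Values below are MAS5 intensities, which are linear and in arbitrary units, or log2 differences, *Clock* mutant minus WT, with a standard error (SE) and a 95% interval. Levels of different probe sets cannot be set against each other, because probes differ in affinity.

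Among the EGR factors, *Egr3*, needed for muscle spindle development, had an unadjusted p under 0.05 at both probe sets, though neither passed after adjustment. Its bright probe set 1436329_at read 1748 and 1901 in *Clock* mutant replicates 1 and 2, against 2176, 2422 and 2053 in WT replicates 1, 2 and 3. Both mutant values lay below every WT value. The log2 difference was -0.28 (SE 0.0976, 95% interval -0.50 to -0.06, unadjusted p = 0.0189, adjusted p = 0.376). The dimmer probe set 1421486_at read 56.1 and 90.2 in *Clock* mutant skin, against 100.998, 122 and 175 in WT skin, again without overlap. Its log2 difference was -0.86 (SE 0.309, 95% interval -1.56 to -0.16, unadjusted p = 0.0209, adjusted p = 0.383), so that the 2 probe sets had the same sign but very different sizes, and the dimmer one the wider interval.

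*Egr1*, the factor most widely used as a sign of early gene induction, was spread in WT skin more than between the groups. Probe set 1417065_at read 4679 and 4778 in *Clock* mutant skin, against 5517, 3317 and 6520 in WT skin. Both mutant arrays lay inside the WT range, which spanned 62.6% of the WT mean. The log2 difference was -0.06 (SE 0.228, 95% interval -0.57 to 0.46, adjusted p = 0.945), which holds differences of either sign.

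*Egr2*, which is needed for myelination by Schwann cells and is also made in the hair follicle, had a small positive difference that did not pass. Probe set 1427683_at read 1827 and 1724 in *Clock* mutant skin, against 1786, 1438 and 1447 in WT skin. The groups overlapped at WT replicate 1, with a log2 difference of 0.20 (SE 0.114, 95% interval -0.06 to 0.45, adjusted p = 0.558). Its second probe set, 1427682_a_at, read 891 and 919 in *Clock* mutant skin, against 1011, 878 and 743 in WT skin, which gave 0.06 on the log2 scale (SE 0.135, adjusted p = 0.908). Of the 3 EGR genes, *Egr3* alone had p under 0.05 before adjustment, and whether its difference departs from those of *Egr1* and *Egr2* was not tested.

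No tested probe set of the IER genes had an unadjusted p under 0.05, and all their intervals include 0. *Ier2*, a nuclear protein induced by growth factors, read 1514 and 1608 in *Clock* mutant skin, against 1736, 1621 and 1801 in WT skin at 1416442_at. The mutant arrays lay below all WT arrays, by a narrow margin to WT replicate 2, and the log2 difference was -0.14 (SE 0.0904, 95% interval -0.34 to 0.07, adjusted p = 0.601). *Ier3*, a stress-induced modulator of apoptosis, read 1323 and 1645 in *Clock* mutant skin, against 1753, 1676 and 1322 in WT skin at 1419647_a_at. Both groups held a value near the lowest, and the log2 difference was -0.09 (SE 0.143, 95% interval -0.41 to 0.23, adjusted p = 0.851).

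*Ier5*, which binds the phosphatase PP2A and activates the heat shock factor HSF1, read 657 and 715 in *Clock* mutant skin, against 814, 651 and 766 in WT skin at 1417612_at. The groups overlapped, with a log2 difference of -0.11 (SE 0.126, 95% interval -0.40 to 0.17, adjusted p = 0.773). Probe set 1460009_at read 94.9 and 121 in *Clock* mutant skin, against 124, 98.8 and 97.5 in WT skin. This gave 0.02 on the log2 scale (SE 0.234, 95% interval -0.51 to 0.55, adjusted p = 0.984). The remaining probe set, 1417613_at, was too dim to test, at 7.9 and 29.6 in *Clock* mutant skin, against 18.5, 15.2 and 54.2 in WT skin.

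**Figure D1:**
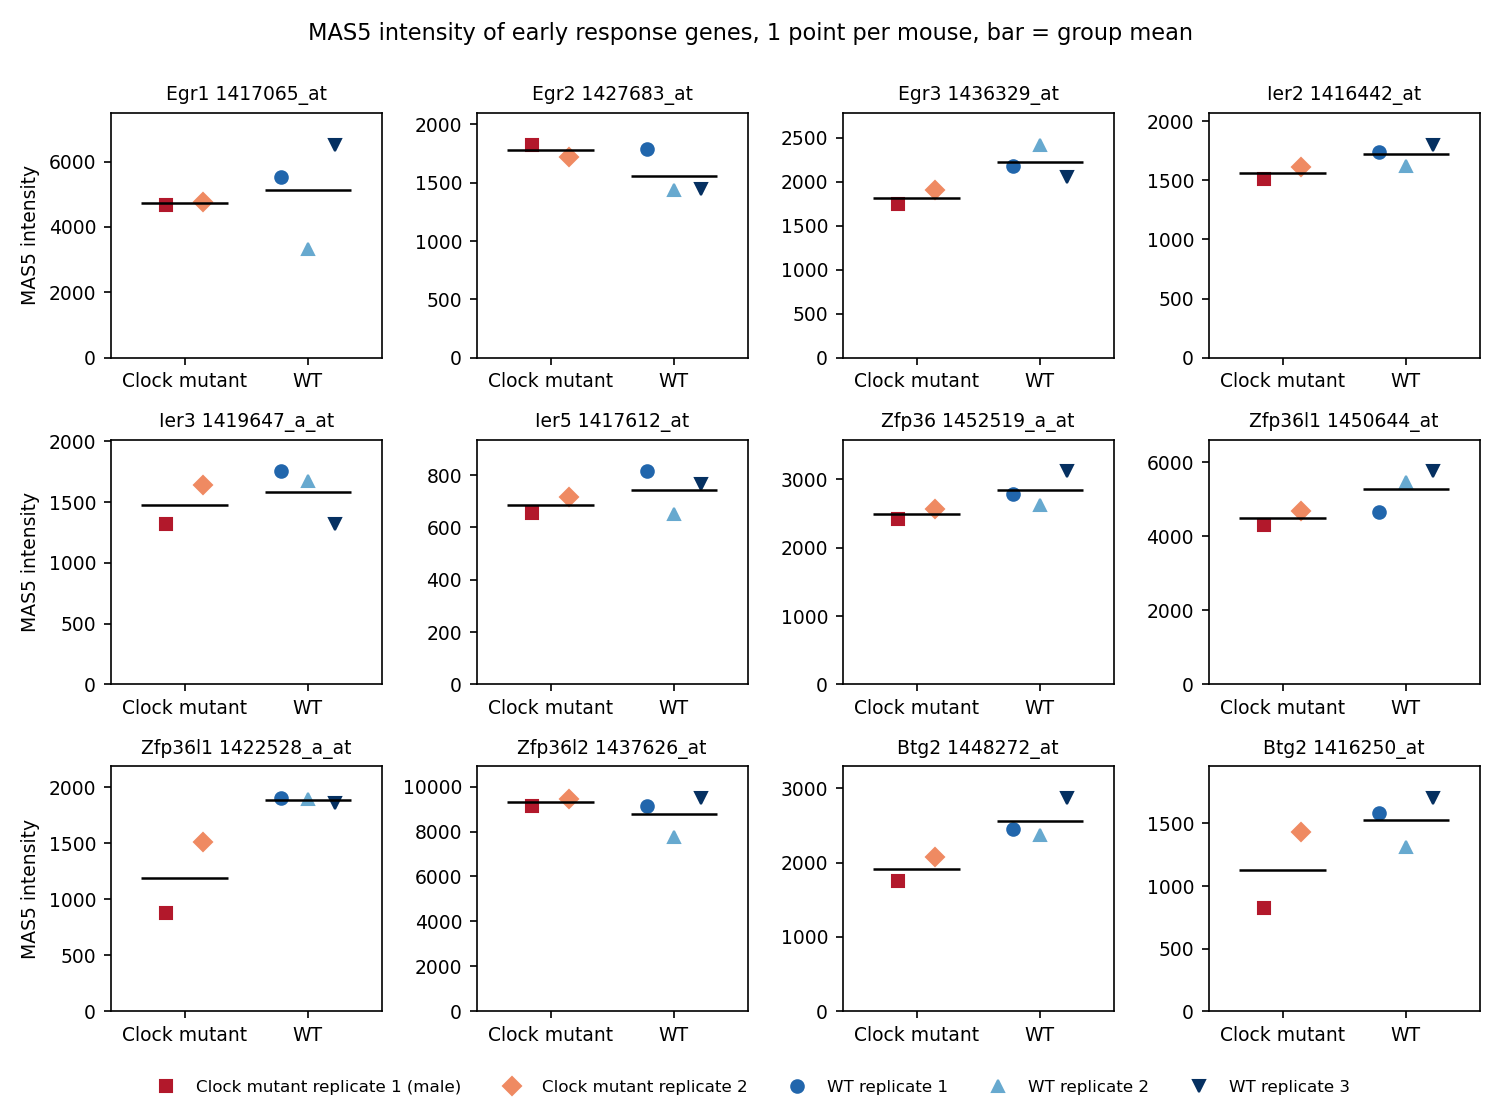
MAS5 intensity (linear, arbitrary units, each panel from 0) of 12 member probe sets in 2 *Clock* mutant and 3 WT mice, 1 point per mouse with a bar at the group mean. *Egr1* shows both mutant points inside the WT range, while *Zfp36l1* 1422528_a_at shows both mutant points below a tight WT group, with replicate 1 far lower than replicate 2.

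*Zfp36l1*, an RNA decay factor that acts with ZFP36 and ZFP36L2, had the smallest p-value of the members. Probe set 1422528_a_at read 878 and 1511 in *Clock* mutant skin, against 1902, 1895 and 1861 in WT skin. The WT values were nearly equal, both mutants were lower, and the mutants differed from each other more than mutant replicate 2 differed from WT. The geometric mean was 0.611 times that of WT, a log2 difference of -0.71 (SE 0.187, 95% interval -1.14 to -0.29, unadjusted p = 0.00423, adjusted p = 0.277). The brighter probe set of the gene, 1450644_at, read 4296 and 4681 in *Clock* mutant skin, against 4643, 5474 and 5751 in WT skin. Here mutant replicate 2 lay above WT replicate 1, and the log2 difference was -0.23 (SE 0.10, 95% interval -0.46 to 0.00, unadjusted p = 0.0461, adjusted p = 0.456). The 2 probe sets had the same sign and differed in size.

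*Zfp36*, which encodes tristetraprolin, the founding member of the family and a brake on TNF, read 2414 and 2559 in *Clock* mutant skin, against 2782, 2620 and 3115 in WT skin at 1452519_a_at. The groups did not overlap, mutant replicate 2 being just under WT replicate 2. The log2 difference was -0.19 (SE 0.0940, 95% interval -0.40 to 0.02, unadjusted p = 0.0764, adjusted p = 0.506). *Zfp36l2* read 9142 and 9452 in *Clock* mutant skin, against 9116, 7764 and 9482 in WT skin at 1437626_at, with overlap and a log2 difference of 0.09 (SE 0.0911, 95% interval -0.12 to 0.29, adjusted p = 0.758). Its other 2 probe sets were too dim to test. At 1451034_at they read 40.7 and 46.3 in *Clock* mutant skin, against 50.9, 55.7 and 89.8 in WT skin, and at 1439054_at 60.7 and 78.8 in *Clock* mutant skin, against 46.6, 23.5 and 85.5 in WT skin.

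*Btg2* had lower intensities at both probe sets, with p under 0.05 before adjustment and not after. At 1448272_at it read 1752 and 2075 in *Clock* mutant skin, against 2460, 2368 and 2867 in WT skin. Both mutants lay below every WT array, with a geometric mean 0.746 times that of WT, a log2 difference of -0.42 (SE 0.112, 95% interval -0.68 to -0.17, unadjusted p = 0.00439, adjusted p = 0.281). At 1416250_at it read 824 and 1433 in *Clock* mutant skin, against 1583, 1314 and 1700 in WT skin. Mutant replicate 2 lay inside the WT range there, and the log2 difference of -0.49 (SE 0.209, 95% interval -0.96 to -0.02, unadjusted p = 0.0442, adjusted p = 0.452) held 1 mutant array far below WT and 1 within it.

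**Figure D2:**
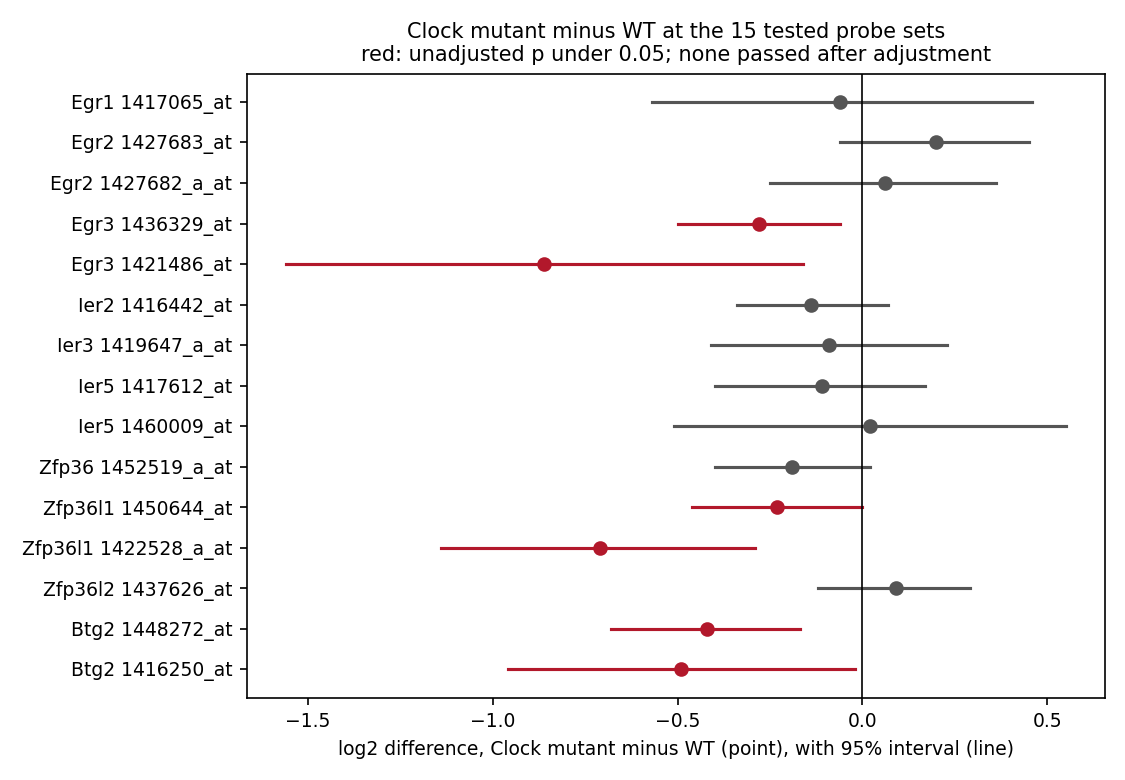
Log2 difference, *Clock* mutant minus WT, with its 95% interval from limma at each of the 15 tested probe sets (2 mutant and 3 WT arrays). The 6 probe sets with an unadjusted p under 0.05, shown in red, belong to *Egr3*, *Zfp36l1* and *Btg2* and lie below 0, and the intervals of the other genes include 0.

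Counted together, 0 of the 15 tested probe sets passed an adjusted p of 0.05, against 24 (0.0888%) of all 27022, and 1 passed in a Cyber-T style test, *Zfp36l1* 1422528_a_at (adjusted p = 0.0304). At an unadjusted p under 0.05, 6 were lower in *Clock* mutant skin, where 6.71% of all tested probe sets were, and 0 were higher, where 4.09% were. Both mutant arrays lay below all WT arrays at 6, against 15.1% of all, and above them at 0, against 12.8%. The log2 difference was below 0 at 11, against 53.5% of all. The median over the 15 was -0.14, against -0.02 over all tested probe sets. The 15 come from 10 genes that are often induced together and are not independent of each other.

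The mutant values were not equally low in both mice. *Clock* mutant replicate 1, the male, was the lowest of the 5 arrays at 9 of the 15 probe sets and *Clock* mutant replicate 2 at 0, while WT replicates 1, 2 and 3 were lowest at 0, 4 and 2. Over all tested probe sets, replicate 1 of the mutants was lowest at 30.2% and the other arrays at 16.3% to 19.1%. It was also the highest at 23.5%, against 17.4% to 21.3% for the other arrays. The median deviation of the members from the WT mean was -0.23 and -0.09 on the log2 scale in mutant replicates 1 and 2, and 0.06, -0.10 and 0.07 in the WT replicates. WT replicate 2 thus lay as low as mutant replicate 2 by this median.

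**Figure D3:**
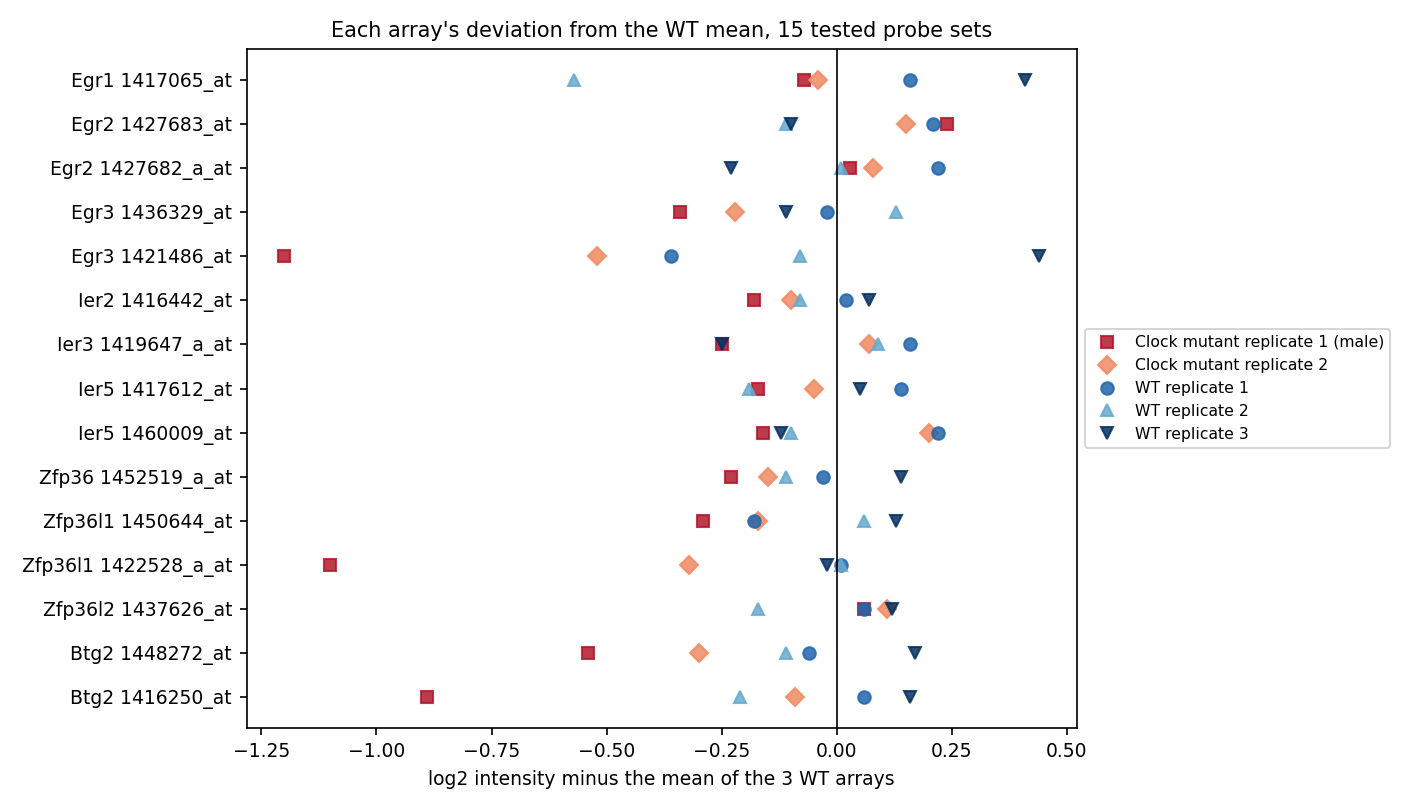
Log2 intensity of each array minus the mean of the 3 WT arrays at the 15 tested probe sets, 1 marker per mouse. *Clock* mutant replicate 1 (dark red squares) is the lowest array at 9 probe sets, most widely at *Egr3* 1421486_at, *Zfp36l1* 1422528_a_at and *Btg2* 1416250_at, and *Clock* mutant replicate 2 (orange diamonds) at 0.

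Without *Clock* mutant replicate 1, the differences kept their sign at *Egr3*, *Zfp36l1* and *Btg2* but shrank. *Egr3* was then -0.22 at 1436329_at and -0.52 at 1421486_at. *Zfp36l1* was -0.17 at 1450644_at and -0.32 at 1422528_a_at, and *Btg2* was -0.30 at 1448272_at and -0.09 at 1416250_at. Adjusted p lay between 0.64 and 0.954 over these 6 probe sets, and only 2 member probe sets were lower at an unadjusted p under 0.05, where 4.02% of all were. Without *Clock* mutant replicate 2, *Zfp36l1* 1422528_a_at passed at -1.10 (adjusted p = 0.00927 by limma, the lone mutant assumed to vary as the WT mice do), the only member to do so.

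**Figure D4:**
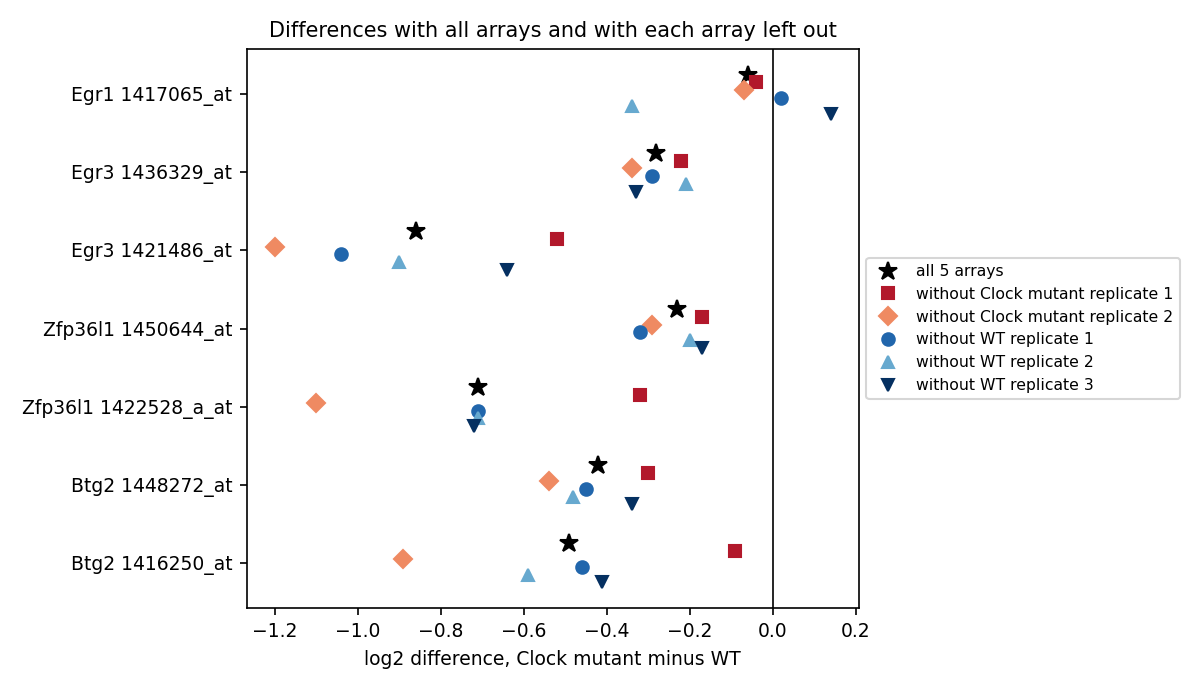
Log2 difference, *Clock* mutant minus WT, at 7 probe sets of *Egr1*, *Egr3*, *Zfp36l1* and *Btg2* from all 5 arrays (stars) and with each array left out (other markers). Leaving out *Clock* mutant replicate 1 moves *Btg2* 1416250_at to -0.09 and *Zfp36l1* 1422528_a_at to -0.32, while *Egr1* crosses 0 when WT replicate 1 or 3 is left out.

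Markers of the growing hair follicle moved with that mouse. The summed intensity of 8 markers, among them trichohyalin (*Tchh*) and the root sheath keratins *Krt27* and *Krt28*, was 7300 and 1550 in *Clock* mutant replicates 1 and 2, against 1629, 725 and 729 in WT skin. Of the 7 tested, 5 were higher at an unadjusted p under 0.05 (4.09% of all tested probe sets) and 0 after adjustment. *Tchh* read 1225 and 315 in *Clock* mutant skin, against 280, 147 and 155 in WT skin. The summed markers of epidermis were 89121 and 90194 in *Clock* mutant skin, against 89075, 82153 and 90802 in WT skin. Those of fibroblasts were 107752 and 103970 in *Clock* mutant skin, against 105328, 104336 and 114120 in WT skin, so that epidermal and dermal markers were present on every array. Adipocyte markers summed to 35239 and 31226 in *Clock* mutant skin, against 34904, 36133 and 39469 in WT skin. Of their 7 tested probe sets, 4 were lower at an unadjusted p under 0.05 (6.71% of all tested probe sets) and 0 after adjustment. The same 4 had both mutant arrays below all WT arrays (15.1% of all), and the median log2 difference was -0.18. They are probe sets of *Cidec*, a lipid droplet protein, and *Fabp4*, a fatty acid carrier, while *Adipoq* was at -0.04 (adjusted p = 0.893). The 3′ to 5′ ratio of *Gapdh*, a sign of RNA integrity, was 1.05 and 0.988 in *Clock* mutant skin, against 0.902, 0.860 and 0.955 in WT skin. The part of follicle content, fat content, RNA integrity and sex in the members' values was not tested.

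Relatives of *Btg2* were measured as well. *Tob1* and *Tob2*, antiproliferative proteins that also bind the CCR4-NOT deadenylase, had lower intensities in *Clock* mutant skin before adjustment. *Tob1* read 2655 and 2734 in *Clock* mutant skin, against 3053, 4510 and 4272 in WT skin (log2 difference -0.53, SE 0.150, adjusted p = 0.308). *Tob2* read 1817 and 1912 in *Clock* mutant skin, against 2031, 2821 and 2205 in WT skin at its brightest probe set (log2 difference -0.32, SE 0.132, adjusted p = 0.440), and its other 3 tested probe sets lay between -0.72 and -0.36. *Btg1* overlapped between the groups at its 3 probe sets, at -0.14 (adjusted p = 0.630), -0.22 and 0.25. *Ier5l* was at -0.07, with overlap, and at 0.67 (unadjusted p = 0.0784, adjusted p = 0.510). At the latter both mutant arrays lay above all WT arrays. Over the 10 tested probe sets of *Tob1*, *Tob2*, *Btg1* and *Ier5l*, 5 were lower and 0 higher at an unadjusted p under 0.05. All 5 were of *Tob1* and *Tob2*. Over all tested probe sets the shares were 6.71% and 4.09%. In these relatives 0 passed after adjustment, and the median log2 difference was -0.27. *Egr4* read 37.8 and 54.0 in *Clock* mutant skin, against 31.6, 49.4 and 67.6 in WT skin, and was too dim to test.

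Upstream of the early genes, the kinases, SRF, TCF and CREB regulators held differences of both signs. Of 28 tested probe sets of 12 genes, 2 were lower and 3 higher at an unadjusted p under 0.05, where 6.71% and 4.09% of all were. After adjustment 0 passed, and the median log2 difference was 0.03. The smallest p-values at the brightest probe sets were those of the TCF factor *Elk3* (log2 difference 0.29, adjusted p = 0.455), the CREB coactivator *Crtc1* (-0.39, adjusted p = 0.501) and the ERK-activated kinase *Rps6ka3* (0.15, adjusted p = 0.527). The other tested probe sets were at 0.38 and 0.11 for *Elk3* and at 0.22 and -0.28 for *Rps6ka3*. *Srf*, *Creb1* and the kinase *Map2k2* were named after their values were seen. The 2 probe sets of *Srf* were at -0.53 (unadjusted p = 0.00509, adjusted p = 0.299) and -0.23. The 3 tested probe sets of *Creb1* lay between -0.35 and -0.29. These genes held the 2 lower probe sets. The 3 higher ones were of *Elk3* (0.29 and 0.38) and *Map2k2* (0.31), whose brighter probe set was at 0.11.

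Downstream of the EGR factors, 3 of 18 tested probe sets of corepressors and target genes were lower and 0 higher at an unadjusted p under 0.05. Of all tested probe sets, 6.71% were lower and 4.09% higher. After adjustment 0 of the 18 passed, and their median was -0.08. The corepressor *Nab2*, itself an EGR target that closes a feedback loop, read 601 and 617 in *Clock* mutant skin, against 753, 781 and 793 in WT skin. The groups did not overlap, with a log2 difference of -0.35 (SE 0.103, unadjusted p = 0.00789, adjusted p = 0.316). At their brightest probe sets, the growth factor *Tgfb1* was at -0.58 (adjusted p = 0.356) and the hyaluronan receptor *Cd44* at -0.19 (adjusted p = 0.413). Their other tested probe sets all overlapped between the groups, at -0.09 for *Tgfb1* and at -0.16 and -0.31 for *Cd44*. The other corepressor, *Nab1*, had 3 probe sets between -0.07 and 0.11.

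Of 12 messages with AU-rich elements bound by ZFP36, 5 genes were bright enough to be tested, with 7 probe sets. At an unadjusted p under 0.05, 2 were lower, where 6.71% of all tested probe sets were, and 0 higher, where 4.09% were. After adjustment 0 passed, and the median was -0.14. Both lower probe sets were of 1 gene, the angiogenic factor *Vegfa*. Its brighter one read 812 and 642 in *Clock* mutant skin, against 833, 973 and 1049 in WT skin (log2 difference -0.39, SE 0.141, adjusted p = 0.384). The dimmer one was at -0.87 (SE 0.250, adjusted p = 0.310). The cytokine *Tnf* was at 0.40 (SE 0.287, adjusted p = 0.634) and the chemokine *Cxcl1* at -0.14 (SE 0.191, adjusted p = 0.819), both with overlap.

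The deadenylation machinery that ZFP36 and BTG2 proteins recruit had a median log2 difference of -0.01 over 39 probe sets of 14 genes. Of these, 4 were lower and 0 higher at an unadjusted p under 0.05 (6.71% and 4.09% of all tested probe sets), and 0 passed after adjustment. At their brightest probe sets, the deadenylase *Cnot6l* was at -0.43 (adjusted p = 0.397), the subunit *Cnot11* at 0.19 (adjusted p = 0.505) and the deadenylase *Cnot8*, a partner of BTG2, at 0.17 (adjusted p = 0.562). The other tested probe sets lay between -0.19 and -0.05 for *Cnot6l*, at 0.07 for *Cnot11* and at 0.02 for *Cnot8*. Besides *Cnot6l*, the lower probe sets were of *Cnot3* (-0.58), *Pan3* (-1.03) and *Cnot4* (-0.57), named after their values were seen. The brightest probe sets of these genes were at -0.28, 0.02 and 0.14. Among p53 targets, of which *Btg2* is one, 4 of 20 probe sets were lower and 2 higher at an unadjusted p under 0.05, against the same 6.71% and 4.09% of all. After adjustment 0 of these passed, and their median was -0.01. *Phlda3*, an inhibitor of AKT, was at -0.40 (unadjusted p = 0.0014, adjusted p = 0.204), the receptor *Eda2r* at 0.43 (adjusted p = 0.371) and the growth arrest gene *Gadd45a* at 0.54 (adjusted p = 0.379). The p53 targets thus held values of both signs.

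Other immediate early genes had a lower median than the members. Over 62 tested probe sets of 36 genes the median log2 difference was -0.30. At an unadjusted p under 0.05, 28 were lower, against 6.71% of all tested probe sets, and 0 higher, against 4.09%. Both mutant arrays lay below all WT arrays at 36 of the 62, against 15.1% of all. The nuclear receptor *Nr4a1* passed after adjustment, at 841 and 1281 in *Clock* mutant skin, against 2478, 2819 and 2483 in WT skin (log2 difference -1.32, SE 0.160, adjusted p = 0.0299). *Nr4a1* did not pass with no filter (adjusted p = 0.0671), without a trend (0.405) or without any 1 of WT replicates 1, 2 and 3 (0.0836, 0.206 and 0.118), and passed when either mutant array was left out. Their median deviation was -0.36 and -0.21 in *Clock* mutant replicates 1 and 2, against -0.09, 0.09 and 0.02 in the WT replicates, so that both mutants were lowest by this median. Whether the members differ from these genes was not tested.

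Of 21 probe sets of 10 glucocorticoid responsive genes, some of which are early genes too, 18 were lower and 0 higher at an unadjusted p under 0.05. Over all tested probe sets these shares were 6.71% and 4.09%. After adjustment 0 of the 21 passed, and their median was -0.51. *Tsc22d3*, the glucocorticoid induced leucine zipper, was at -0.66 (adjusted p = 0.158), the EGFR inhibitor *Errfi1* at -0.90 (adjusted p = 0.181) and the MAP kinase phosphatase *Dusp1* at -0.51 (adjusted p = 0.218). Of 20 probe sets of clock genes driven by E-box and D-box elements, 3 were lower and 0 higher after adjustment, and the median was -0.78. In either direction, 0.0888% of all tested probe sets passed. The repressor gene *Per3* was at -1.64 (SE 0.170, adjusted p = 0.0144) and *Per2* at -1.17 (SE 0.146, adjusted p = 0.0321). The third, named after its value was seen, was probe set 1418174_at of the D-box factor *Dbp* at -1.54 (SE 0.200, adjusted p = 0.0360). It was not the brightest tested probe set of *Dbp*, which did not pass. None of the 3 passed without a trend (adjusted p 0.301 to 0.393), without *Clock* mutant replicate 1 (0.0651 to 0.160) or without WT replicate 2 or 3 (0.0572 to 0.239). *Per2* and *Dbp* were also lost with no filter (0.0671 and 0.0849), and *Dbp* with quantile normalization (0.0528), without *Clock* mutant replicate 2 (0.0505) and without WT replicate 1 (0.0710).

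The genes outside the list whose pattern over the 5 arrays was most like the mean of the members' brightest probe sets were *Card14*, *Ifitm2*, *Slc12a9*, *Tnfrsf21* and *Stard5*. Their root mean square distance was 0.0122 to 0.0228 on the log2 scale, against a median of 0.18 over 12945 genes. Their own differences lay between -0.13 and -0.11, and adjusted p between 0.595 and 0.764. These differences are largely set by the choice, since the genes were picked by their pattern over the same 5 arrays.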

How the data were processed

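RNA of dorsal skin was extracted with Trizol, and 11 µg per mouse was labelled and hybridised to 1 Affymetrix array. The values are linear signal intensities as deposited by the authors, produced with MAS5 according to the submitters' processing notes (version not given in the sources used here). MAS5 subtracts mismatch signal, is noisy for dim probe sets and scales each array by 1 factor. The 2% trimmed mean was 500 on every array. The median intensity was 106.0 in *Clock* mutant replicate 1 and 114.4 to 118.1 on the other arrays. The number of arrays limits the precision.

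Genes were named from the platform annotation. Of 45101 probe sets, 64 controls were left out. Intensities under 1 (2441 values) were set to 1, log2 was taken, and 18015 probe sets with a mean below the 40th percentile (56.7 in intensity) were not tested. The 2 groups were fitted in limma 3.58.1 under R 4.3.3 (lmFit and trended eBayes). Tests were two-sided, and p-values were adjusted by Benjamini-Hochberg over 27022 probe sets and no covariates. No test is stated in the methods for these arrays. The limma step was tested on simulated data.

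Members and gene lists were chosen with earlier results of these data known. Every member probe set is named. Of other lists, genes past the adjusted threshold are named, or else the 3 with the smallest p at their brightest probe set. Further probe sets of *Tob2*, *Btg1*, *Elk3*, *Rps6ka3*, *Nab1*, *Tgfb1*, *Cd44*, *Vegfa*, *Cnot6l*, *Cnot11* and *Cnot8*, with *Egr4* and *Ier5l*, were added to complete a gene or family. Others are marked as named after their values were seen. Alternatives were other scalings, filters, offset, priors, a Cyber-T style test (window 101, prior weight 10), averaging the probe sets of each gene, a replicate block, and fits without each array in turn. The replicate numbers do not pair the mice by their labels. RefSeq tables of GRCm38.p6 gave the promoter windows, since array values carry no positions.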

Additional observations from a re-analysis of the deposited data

How the results depend on the processing

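No member probe set passed the adjusted threshold under the scalings, filters, offset, priors and replicate block tried. In the Cyber-T style test 1 passed, *Zfp36l1* 1422528_a_at (-0.71, adjusted p = 0.0304), where 337 of all probe sets were called, against 24. The count of all called was 10 with no filter and 0 without a trend, where 2631 had an unadjusted p under 0.05. With arrays left out it was 0 to 201 (0 without WT replicate 2 or 3, with 1581 and 2194 at an unadjusted p under 0.05, 13 without *Clock* mutant replicate 1 and 201 without *Clock* mutant replicate 2). The members called then numbered 0 to 1.

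The 6 member probe sets lower at an unadjusted p under 0.05 (6.71% of all) became 3 under median centring (3.62%) and 3 without a trend (6.57%). With arrays left out they were 2 to 6, with 2 without *Clock* mutant replicate 1 (4.02%), 6 without *Clock* mutant replicate 2 (10.5%), 5 without WT replicate 1 (6.89%), 6 without WT replicate 2 (3.65%) and 3 without WT replicate 3 (5.21%). Those without overlap below WT were 4 under median centring (9.01% of all) and 7 under quantile normalization (12.9%), against 6 (15.1%). With arrays left out, which makes separation easier by construction, they were 6 to 9, with 6 without *Clock* mutant replicate 1 (26.4%), 9 without *Clock* mutant replicate 2 (35.4%), 7 without WT replicate 1 (24.4%), 9 without WT replicate 2 (19.5%) and 7 without WT replicate 3 (21.5%). Median centring moved the members' median to -0.05 and that of all probe sets to 0.07. At an unadjusted p under 0.05 it gave 977 probe sets lower and 2357 higher, against 1812 and 1106 under the deposited scaling. Quantile normalization gave 1499 and 1287. The members' median lay between -0.23 and -0.09 with arrays left out.

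Under median centring, signs turned for *Egr1* (0.03) and for the medians of EGR partners and targets (0.01), deadenylation factors (0.08) and p53 targets (0.07). With arrays left out, *Egr1* ranged between -0.34 and 0.14, *Egr2* 1427682_a_at between -0.06 and 0.16, *Ier3* between -0.25 and 0.07, *Ier5* 1460009_at between -0.16 and 0.20, *Zfp36l2* between 0.00 and 0.14, the upstream regulators' median between -0.04 and 0.05 and that of p53 targets between -0.13 and 0.02, and the cause was not tested. With the replicate number as a block, fitted although deviations of same-numbered mice correlated at only 0.01 and 0.10, 106 probe sets were called and *Egr1* (0.14), *Egr2* 1427682_a_at (-0.06) and *Ier5* 1460009_at (-0.04) turned sign.

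Dim probe sets carry the widest intervals, and 2 mutants, 1 of each sex, cannot separate sex from the spread between mutant mice.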
